A study of Mus musculus with 4 samples.

Results

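Nfat5 and the calcineurin-regulated NFAT genes are described here by 9 genes chosen by name: Nfat5, the 4 NFATc genes (Nfatc1, Nfatc2, Nfatc3 and Nfatc4), the calcineurin subunit genes Ppp3ca, Ppp3cb and Ppp3r1, and the calcineurin regulator gene Rcan1. All 9 are among the 25814 genes listed in each library. RNA was sequenced from 4 cultures of keratinocytes (KCs), the main cells of the epidermis, prepared from tails of adult 129/sv mice and grown untreated in serum-free medium with low calcium. In 2 libraries the mice were labelled Wildtype (WT), and in 2 they were labelled Nfat5-Knockout (Nfat5-/-), and the names WT and Nfat5-/- KCs below follow these labels. The study's methods describe the WT animals as littermates and the tails as shipped overnight on ice, and they describe 129sv mice as small, with atrophic kidneys and raised blood sodium. The stretch of Nfat5 that the mutant allele lacks is not given in the sources used here.

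NFAT5 is a transcription factor with a DNA-binding region of the Rel homology type, and it is activated in cells under hypertonic stress, when it raises genes for osmolyte carriers and enzymes. The NFATc proteins share this region but are controlled by calcium: calcineurin, a phosphatase made of a catalytic and a regulatory subunit and bound by calmodulin, removes phosphates from them, and they move into the nucleus. NFAT5 is not a calcineurin substrate of this kind, and the calcium route is best known from activated lymphocytes. Rcan1 codes for a protein that binds calcineurin and restrains it, and its transcription is itself raised by calcineurin and NFATc.

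Depth lay between 16219445 and 23494436 gene reads per library. A floor of 3 reads, the smallest level read here as detected, corresponds to between 0.128 and 0.185 CPM (counts-per-million of the gene reads of a library) and covers counting error only. The culture label was checked against 7 basal KC markers, of which 6 had at least 1 RPKM in every library. RPKM, as deposited, are exon reads per kilobase of exon, corrected for library size. The summed level of 6 T cell markers was between 0.214 and 1.01 RPKM, and none of the 6 reached 1 RPKM in every library. The leukocyte gene Ptprc stayed at or below 0.176 RPKM. For 5 smooth muscle markers the sum was 184 and 151 RPKM in WT against 518 and 819 RPKM in Nfat5-/- KCs, mostly from Acta2. In the edgeR fit 4 of these 5 rose in Nfat5-/- KCs: Acta2 by 2.00 on the log2 scale (adjusted p 0.0192), Tagln by 2.11 (adjusted p 0.00768), Cnn1 by 2.17 (adjusted p 0.0440) and Myh11 (adjusted p 0.0435), the last from 1 and 1 reads to 22 and 40 reads and at most 0.294 RPKM. Des had at most 1 read. For 6 melanocyte markers it was 7.51 and 7.14 RPKM against 2.06 and 2.94 RPKM, and of the 4 tested Tyrp1 fell by 2.05 on the log2 scale (edgeR adjusted p 0.0203). The fibroblast and endothelial lists stayed below 1.2 RPKM in sum. What part these marker differences have in the values below was not tested, and in bulk RNA fewer cells of a type cannot be told apart from less RNA per cell.

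Rcan1 has 2 start sites in the promoter table used, and because the counts are given per gene, transcripts from both fall into a single value. The sites lie 66091 bases apart on the minus strand of chromosome 16. The 250 bases before each start are shown, from RefSeq on GRCm38.p6, because the internal start is the known site of induction by NFATc. The upstream window is chr16:92466170-92466419 and the internal window is chr16:92400079-92400328. Capitals mark GGAAA, the core that NFAT proteins bind, on either strand (TTTCC when read on the strand shown).

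Rcan1 upstream start: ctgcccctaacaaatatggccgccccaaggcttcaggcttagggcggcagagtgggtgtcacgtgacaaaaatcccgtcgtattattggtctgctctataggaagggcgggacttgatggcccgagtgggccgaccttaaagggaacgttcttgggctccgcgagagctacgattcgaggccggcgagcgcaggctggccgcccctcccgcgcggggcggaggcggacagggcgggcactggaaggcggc

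Rcan1 internal start: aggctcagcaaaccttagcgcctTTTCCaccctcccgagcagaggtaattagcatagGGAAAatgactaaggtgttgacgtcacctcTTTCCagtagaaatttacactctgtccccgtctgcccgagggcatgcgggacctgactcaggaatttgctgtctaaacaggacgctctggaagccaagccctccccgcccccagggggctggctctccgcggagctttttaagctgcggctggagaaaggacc

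The upstream window held 0 of these motifs and the internal window held 3. Of 32851 promoter windows of the same length, 55.6% held at least 1 and 6.39% held at least 3. These are matches of letters and not measured binding sites. The longer word TGGAAA, which contains the core, occurred 2 times in the internal window, and 18.6% of all windows held it at least 1 time. The share of windows holding it at least 2 times was not counted. Of the 9 members, 7 had a promoter entry.

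Nfat5 (ENSMUSG00000003847) lies on the plus strand of chromosome 8, from 107293470 to 107379517 on GRCm38, with an exon length of 13.4 kb and no other annotated gene within its span. Its RNA level was 1.67 and 3.002 RPKM in WT replicates 1 and 2. It was 2.02 and 2.78 RPKM in Nfat5-/- replicates 1 and 2. Both values of Nfat5-/- KCs thus fell between the WT values, and the groups overlapped. The edgeR fit on total gene reads gave Nfat5 a log2 fold change of 0.09 (SE 0.26), with a 95% interval from -0.52 to 0.69 and an adjusted p of 0.913. On a linear scale the interval ran from 0.699-fold to 1.62-fold, so a loss of most Nfat5 reads lies outside it. The counts hold no values per exon, so a deletion that leaves the rest of the transcript in place would not be seen in them, and they check the genotype labels neither way.

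The spread of Nfat5 between the WT libraries was large for its depth. WT replicate 2 exceeded WT replicate 1 by 0.77 in log2 CPM, or 1.71-fold. Of the 4449 genes with a mean read count within a factor of 2 of that of Nfat5, 98.5% had a smaller gap between the WT libraries. The Nfat5-/- libraries differed by 0.44, and 94.4% of the same genes had a smaller gap there. Without WT replicate 1 the log2 fold change of Nfat5 was -0.23 (edgeR adjusted p 0.770), and without WT replicate 2 it was 0.53 (adjusted p 0.233). Such a fit leaves 1 library in a group, which is assumed to vary like the pair in the other group. Without Nfat5-/- replicate 1 it was 0.31, and without replicate 2 it was -0.16. The sign of the Nfat5 difference therefore changed with the library left out.

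**Figure D1:**
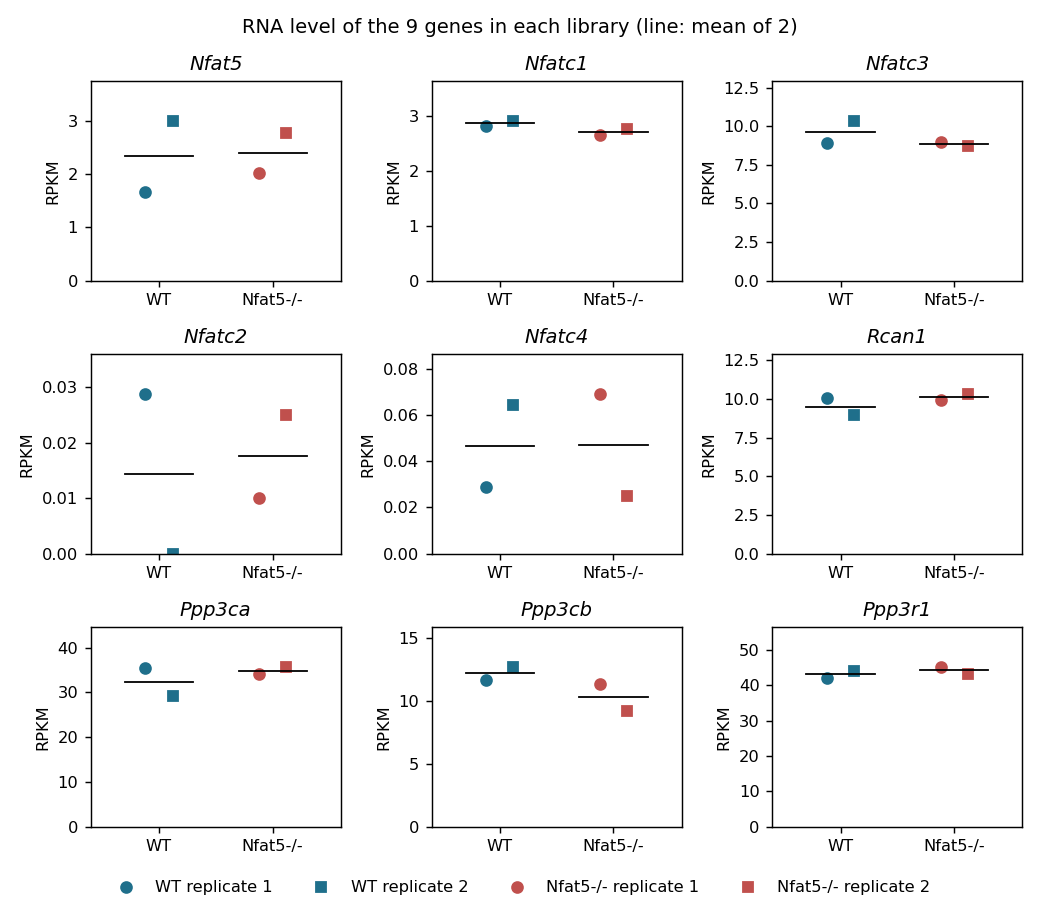
RNA level in RPKM (vertical axes, each from 0) of the 9 genes in 2 WT and 2 Nfat5-/- libraries. Points are libraries, with circles for replicate 1 and squares for replicate 2, and lines are group means; the Nfat5 points run from 1.67 to 3.002 RPKM with both Nfat5-/- points between the WT points, and the groups separate only for Nfatc1 and Ppp3cb.

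The reads of Nfat5 were then split by class. Exon reads numbered 374 and 894 in WT against 654 and 714 in Nfat5-/- KCs. All of them (100%) were placed at a single site. In the edgeR fit on exon reads the log2 fold change was 0.04 (SE 0.27, adjusted p 0.959). Reads across exon junctions numbered 17 and 58 in WT against 44 and 24 in Nfat5-/- KCs. They made up 3.36% to 6.73% of the Nfat5 exon reads, against 24.0% to 25.0% of exon reads over all genes. Junction reads thus overlapped between the groups as exon reads did.

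Intron reads of Nfat5, which can come from RNA that is not yet spliced or from introns that are kept, were counted separately. They numbered 34 and 35 in WT against 61 and 56 in Nfat5-/- KCs. In CPM this was 2.10 and 1.62 in WT against 2.60 and 3.003 in Nfat5-/- KCs, so the groups did not overlap. Groups stood apart on this scale in 49.9% of the 5740 genes with enough intron reads to be tested. The edgeR fit on intron reads gave a log2 fold change of 0.89 (SE 0.25), with a 95% interval from 0.35 to 1.43. Its unadjusted p was 0.00366 and its adjusted p over all genes tested was 0.226, so Nfat5 did not pass the threshold of 0.05. The value lay between 0.75 and 1.04 when each library was left out in turn. With the scaling factors of the gene reads the log2 fold change was 0.62 (edgeR unadjusted p 0.037, adjusted p 0.271). These factors also moved the median of all genes from 0.02 to -0.25. Relative to that median the Nfat5 value was 0.87 under both scalings. Introns held 8.33% and 3.77% of the Nfat5 gene reads in WT against 8.53% and 7.27% in Nfat5-/- KCs. The share was low in WT replicate 2, the library with the most Nfat5 exon reads. Whether the intron and exon differences of Nfat5 differ from each other was not tested.

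**Figure D2:**
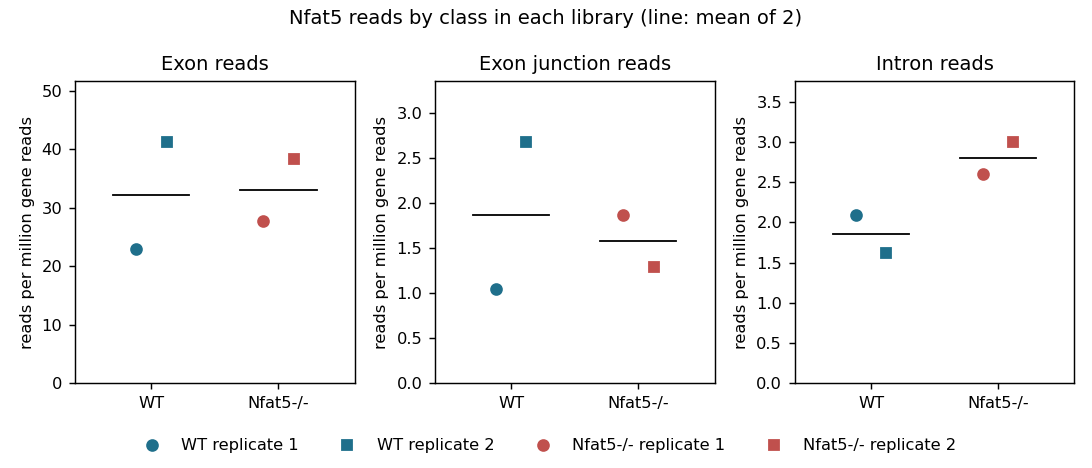
Nfat5 exon reads, exon junction reads and intron reads in CPM (vertical axes from 0) in 2 WT and 2 Nfat5-/- libraries. Points are libraries and lines are group means; exon and junction reads overlap between the groups, while intron reads are 2.10 and 1.62 in WT against 2.60 and 3.003 in Nfat5-/- KCs.

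Of the NFATc genes, Nfatc3 and Nfatc1 were expressed, while Nfatc2 and Nfatc4 were at the limit of detection. Nfatc3 (chromosome 8, 106058840 to 106130537) encodes an NFAT that is found in many tissues. Its level was 8.93 and 10.3 RPKM in WT against 8.99 and 8.71 RPKM in Nfat5-/- KCs, and the groups overlapped. Its log2 fold change was -0.10 (SE 0.11, edgeR adjusted p 0.750). A gene on the other strand, Esrp2, overlaps its exons, and no strand setting is given for the counts, so a part of the Nfatc3 reads is uncertain.

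Nfatc1 (chromosome 18, 80606205 to 80713071), known from lymphocytes, osteoclasts and hair follicle stem cells, measured 2.82 and 2.90 RPKM in WT. It measured 2.64 and 2.76 RPKM in Nfat5-/- KCs. Both of the latter were below both WT values, by a small amount. The log2 fold change was -0.07 (SE 0.12), with a 95% interval from -0.36 to 0.23 and an edgeR adjusted p of 0.859.

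Nfatc2 (chromosome 2, 168476410 to 168601657), a main NFAT of T cells, had 4 and 0 reads in WT against 4 and 4 reads in Nfat5-/- KCs. The count of 0 in WT replicate 2 allows a level of up to 0.139 CPM. No Nfatc2 read crossed an exon junction in any library. Nfatc4 (chromosome 14, 55823144 to 55833943), known from heart and nervous tissue, had 3 and 8 reads in WT against 9 and 2 reads in Nfat5-/- KCs. Neither gene passed the filter on low counts, and a difference between the groups was not detectable at this depth.

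The NFATc transcripts were thus mostly Nfatc3. By RPKM, Nfatc3 made up 75.6% to 77.7% of the summed NFATc level in the 4 libraries and Nfatc1 21.8% to 24.0%. Nfatc2 and Nfatc4 together gave 0.434% to 0.675%. Nfatc3 exceeded Nfat5 by 5.34-fold and 3.44-fold in WT and by 4.45-fold and 3.13-fold in Nfat5-/- KCs. Nfatc1 was 1.68-fold the level of Nfat5 in WT replicate 1 and 0.967-fold in WT replicate 2. The order of Nfatc1 and Nfat5 therefore changed between libraries.

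Ppp3ca and Ppp3cb encode the alpha and beta isoforms of the catalytic subunit of calcineurin. Ppp3ca (chromosome 3, 136670124 to 136937727) was at 35.6 and 29.2 RPKM in WT against 34.0 and 35.7 RPKM in Nfat5-/- KCs. The WT values lay on both sides of 1 of the Nfat5-/- values, so the groups overlapped. The log2 fold change was 0.11 (SE 0.12, edgeR adjusted p 0.735).

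Ppp3cb (chromosome 14, 20499364 to 20546573) had the largest difference on gene reads among the members tested. It was at 11.7 and 12.7 RPKM in WT against 11.4 and 9.15 RPKM in Nfat5-/- KCs. Both of the latter lay below both WT values, and replicate 2 lay furthest below. The log2 fold change was -0.23 (SE 0.12), with a 95% interval from -0.52 to 0.07, an unadjusted p of 0.111 and an edgeR adjusted p of 0.461. Without Nfat5-/- replicate 2 it was -0.10. An antisense gene overlaps exons of Ppp3cb.

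Between the catalytic isoforms, Ppp3ca gave 69.6% and 64.1% of the summed RPKM of Ppp3ca, Ppp3cb and Ppp3cc in WT against 70.1% and 74.8% in Nfat5-/- KCs. The share of Ppp3ca in both Nfat5-/- libraries was above that in both WT libraries, and the difference in share was not tested.

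Ppp3r1 (chromosome 11, 17159263 to 17200375) encodes the regulatory subunit that binds calcium and had the highest deposited RPKM of the 9 genes. It was at 42.1 and 44.1 RPKM in WT against 45.3 and 43.3 RPKM in Nfat5-/- KCs. The log2 fold change was 0.06 (SE 0.10, edgeR adjusted p 0.835). However, 16.8% of its exon reads were placed at a single site, and with uniquely placed reads the value was -0.085 (adjusted p 0.803). Of the 59-base words in its annotated transcripts, 12.8% also occur in those of the overlapping gene Wdr92. Where the other reads that were not unique could also be placed was not tested. With uniquely placed exon reads alone, per kilobase of exon and scaled to gene reads in CPM, Ppp3r1 was at 7.28 to 8.04 over the 4 libraries against 29.9 to 36.5 for Ppp3ca, so its level is uncertain. In the other 6 members tested, at least 99.2% of exon reads were unique.

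Rcan1 (chromosome 16, 92391953 to 92466146) was at 10.03 and 8.97 RPKM in WT against 9.91 and 10.3 RPKM in Nfat5-/- KCs. The groups overlapped, and its log2 fold change was 0.11 (SE 0.13), with a 95% interval from -0.19 to 0.41 and an edgeR adjusted p of 0.751. The interval corresponds to 0.877-fold to 1.33-fold. An antisense gene, Gm46555, overlaps exons of Rcan1, and no strand setting is given. The value is the sum over both start sites shown above, so a shift from the upstream to the internal start would not be seen in it.

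None of the 7 members tested on total gene reads passed the edgeR threshold (0 of 7), and 0 had an unadjusted p under 0.05. Over all 12614 genes tested, 1.27% passed and 14.6% had an unadjusted p under 0.05. DESeq2 and limma-trend on RPKM also called 0 members. On total gene reads the largest fold allowed by any of the 95% intervals, in either direction, was 1.62, for Nfat5. On intron reads it was 2.69, also for Nfat5. On exon reads 0 of 7 members passed, against 1.44% of 12111 genes. On intron reads 5 members could be tested and 0 passed, against 0.0871% of the genes, with Nfat5 alone under an unadjusted p of 0.05, as were 12.2% of the genes. The groups did not overlap in RPKM in 2 of the 7 members, Nfatc1 and Ppp3cb, against 46.5% of all genes tested. The median absolute log2 fold change was 0.10 over the 7 members and 0.16 over all genes.

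**Figure D3:**
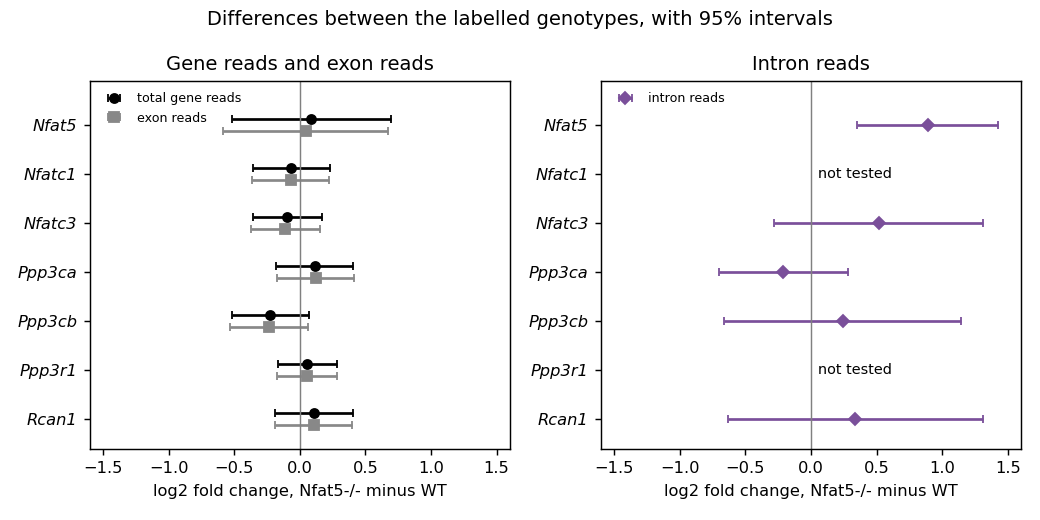
Log2 fold change between the labelled genotypes (Nfat5-/- minus WT, horizontal axes) with 95% intervals from edgeR, for total gene and exon reads (left) and intron reads (right). All intervals on gene and exon reads contain 0, and on intron reads the Nfat5 interval, from 0.35 to 1.43, does not.

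Intron reads of the other members were few. Nfatc3 had 20 and 27 in WT against 45 and 17 in Nfat5-/- KCs, and its log2 fold change of 0.51 (edgeR adjusted p 0.588) became -0.18 without replicate 1 of the latter. Ppp3ca had 80 and 99 in WT against 85 and 57 in Nfat5-/- KCs, and in CPM both of the latter lay below both WT values. Its log2 fold change was -0.21 (SE 0.23, adjusted p 0.746). Ppp3cb and Rcan1 had between 9 and 17 intron reads per library and log2 fold changes of 0.24 and 0.34, with adjusted p-values of 0.856 and 0.805. Nfatc1, with 2 to 11 intron reads, and Ppp3r1, with 7 or 8, did not pass the filter.

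Ordered by mean RPKM over the 4 libraries, the members ran from Ppp3r1 (43.7) and Ppp3ca (33.6) through Ppp3cb (11.2), Rcan1 (9.81) and Nfatc3 (9.25) to Nfatc1 (2.78), Nfat5 (2.37), Nfatc4 (0.0468) and Nfatc2 (0.0159). The ranges over libraries overlapped between Ppp3cb and Rcan1, between Rcan1 and Nfatc3, between Nfatc1 and Nfat5, and between Nfatc4 and Nfatc2, so these neighbours were not ordered beyond their spread. The place of Ppp3r1 rests on reads that were mostly not unique, and on uniquely placed reads it stood at rank 5, below Ppp3ca, Ppp3cb, Rcan1 and Nfatc3. Among 16176 genes with exon reads, 91.2% had a lower mean than Ppp3r1, 45.8% a lower mean than Nfat5, and 11.3% a lower mean than Nfatc2.

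As a description of the Nfat5 pattern, log2 CPM of each gene was centred on its mean and compared over the 4 libraries. The 3 genes nearest to Nfat5 among 12613 were Kcnrg, Nxnl2 and Gm45871, with root mean square differences of 0.0347, 0.0648 and 0.0668 on the log2 scale. They were picked for likeness to Nfat5, and as in Nfat5, replicate 2 was above replicate 1 in both groups. Kcnrg, the nearest, was at 0.0659 to 0.143 RPKM. Of the other members tested, the nearest was Nfatc3 (0.291), at rank 2561.

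The rest of the pathway was read from 9 lists written from general knowledge, with 81 genes besides the members, of which 71 were tested. None passed the edgeR threshold (0 of 71), and 8 had an unadjusted p under 0.05, beside 14.6% of all genes tested. The median log2 fold change was -0.01 for these genes and for all genes. DESeq2 called 3 of the 71 (Homer2, Cdkn1a and Slc38a2) and 3.38% of all genes. Limma-trend tested 10356 genes, against 12614 in edgeR, and called 152 or 135 of them, depending on the constant added to RPKM. It called 0 pathway genes. How many of the 71 it tested was not counted, and weakly expressed ones such as Egr3 may be missing. Its count of 0 is therefore not a result for each of the 71 genes. Without WT replicate 2, with 1 WT library assumed to vary like the Nfat5-/- pair, edgeR called 4 of these genes (Csf2, Dhx9, Homer2 and Slc38a2) and 3.70% of all genes in that fit. With any other library left out it called 0, and the adjusted p-values of these 4 genes ran from 0.205 to 0.841.

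Among calcineurin subunits and regulators 0 of 7 tested genes passed. Ppp3cc, the third catalytic isoform, was at 3.85 and 3.65 RPKM in WT against 3.17 and 2.86 RPKM in Nfat5-/- KCs, without overlap, and its log2 fold change was -0.37 (adjusted p 0.401). Rcan3, a relative of Rcan1, had a log2 fold change of -0.21 (adjusted p 0.519) and a level near that of Rcan1, from 9.96 to 13.8 RPKM. Rcan2 had at most 2 reads in a library and Ppp3r2, the second regulatory subunit gene, had 0 in all 4.

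The 10 tested genes of store-operated calcium entry, which refills calcium stores through Stim and Orai proteins, held 0 calls, as did the calmodulin list. Calm3 was at 120 and 136 RPKM in WT against 156 and 144 RPKM in Nfat5-/- KCs (log2 fold change 0.25, edgeR adjusted p 0.346). Calm2 was at 526 and 567 RPKM against 509 and 447 RPKM (log2 fold change -0.18, adjusted p 0.497). Plcg2, a phospholipase that acts before calcium release, was at 0.21 (adjusted p 0.392) and Itpr2, a calcium release channel of the internal store, at -0.35 (adjusted p 0.578) in log2 fold change.

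Of 12 kinases, carriers and scaffolds that return NFATc to the cytoplasm or act on its phosphorylation, 0 passed. The nearest was Homer2, a scaffold that competes with calcineurin for NFATc, which went from 1.65 and 1.46 RPKM in WT to 0.980 and 0.921 RPKM in Nfat5-/- KCs. Its log2 fold change was -0.70 (SE 0.15, edgeR adjusted p 0.0874), and DESeq2 called it. Dyrk1b, a kinase of the family that phosphorylates NFATc, had a log2 fold change of 0.28 (adjusted p 0.579). The 7 tested genes for other calcineurin substrates had 0 calls, with Mef2d at 0.25 (adjusted p 0.405) and Mef2a at 0.03 (adjusted p 0.923), the latter with 16.5% of exon reads unique.

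Genes known to be activated by NFATc were tested in 9 of 13 cases, with 0 calls, a median log2 fold change of -0.09, and 4 higher against 5 lower. All gene reads of Il4, counted among the 5, were intron reads, and without it the median was -0.033 with 4 higher and 4 lower. Il2, Ifng, Cd40lg and Fasl, genes of activated lymphocytes, did not pass the filter. Csf2, the gene of the cytokine GM-CSF, was at 0.977 and 8.64 RPKM in WT against 19.4 and 7.20 RPKM in Nfat5-/- KCs. Its groups overlapped, and edgeR put the log2 fold change at 1.43 (SE 0.76, adjusted p 0.446). Without WT replicate 2, the library with the higher of the WT values, it became 3.79, and with each other library left out it lay between 0.59 and 1.95. Cdkn1a, the gene of the cell cycle inhibitor p21, was at 189 and 204 RPKM in WT against 257 and 289 RPKM in Nfat5-/- KCs, without overlap. Its log2 fold change was 0.50 (SE 0.11, adjusted p 0.0968), and DESeq2 called it. Egr3, an early growth response gene, was weakly expressed, with 0.381 and 0.440 RPKM in WT beside 0.961 and 0.970 RPKM in Nfat5-/- KCs. Its log2 fold change was 1.26 (SE 0.26), and its edgeR adjusted p of 0.0776 was the smallest of the 71 genes.

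For NFAT5, 7 of 8 osmotic target genes were tested and 0 passed, with 6 of the 7 lower in Nfat5-/- KCs and a median log2 fold change of -0.39. Of all genes tested, 52.0% were lower. An unadjusted p under 0.05 was reached by 4 of the 7, beside 14.6% of all genes. Of the exon reads, 0.326% were unique in Slc5a3, 13.2% in Akr1b3 and 30.5% in Hspa1b, so these 3 values are uncertain. Slc38a2, an amino acid carrier raised under hypertonic stress, was at 136 and 107 RPKM in WT against 89.3 and 79.7 RPKM in Nfat5-/- KCs (log2 fold change -0.50, edgeR adjusted p 0.157). Hspa4l, a chaperone gene, had the same log2 fold change of -0.50 (adjusted p 0.274). Among 12 regulators and partners of NFAT5 there were 0 calls, with Dhx9, an RNA helicase found bound to NFAT5, at 0.37 (adjusted p 0.334) and the kinase gene Sgk1 at -0.18 (adjusted p 0.444). The 5 other genes with a Rel homology region, those of the NF-kappaB family, had 0 calls and log2 fold changes from -0.17 (Relb) to 0.01, with Nfkb1 at -0.16 (adjusted p 0.602).

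**Figure D4:**
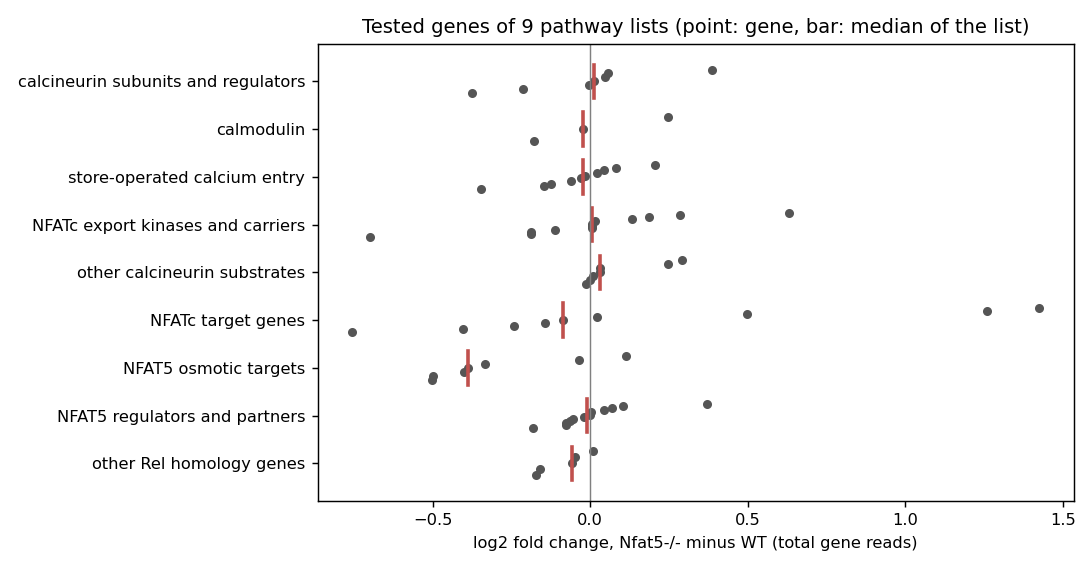
Log2 fold change on total gene reads (Nfat5-/- minus WT, horizontal axis) of the tested genes of 9 lists, 1 point per gene (Plcg1 stands in 2 lists), with a bar at each median. None of the 71 genes passed the threshold; the medians lie near 0 except for the NFAT5 osmotic targets at -0.39.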

How the data were processed

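Polyadenylated RNA of 4 libraries (2 WT, 2 Nfat5-/-; groups and replicate numbers from the titles) was sequenced as single 59-base reads. The authors trimmed the reads and aligned them to GRCm38 with CLC Genomics Workbench 12.0 at default settings. The deposited counts are reads per gene, in exons, in introns and across junctions, not normalized. The deposited RPKM values equal exon reads per exon length and mapped reads. No strand setting was given.

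Gene, exon and intron reads were each fitted over the whole table with edgeR 4.0.16 in R 4.3.3: filterByExpr, TMM, quasi-likelihood test with genotype as the only term, Benjamini-Hochberg adjustment, threshold 0.05. Intervals cover 95%. DESeq2 1.42.0 and limma 3.58.1 served as alternatives. The procedure was tested on simulated counts. Same-group libraries differed beyond sampling noise (chi-square per degree of freedom 16.7 and 17.3). P-values set a group difference against the spread between same-group libraries, which the fit estimates with help from all genes. That spread may be technical.

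Members, lists and tests were chosen with earlier results of these data known. From each list the called genes were to be named, or, with none called, the 2 largest changes at 1 RPKM or more. Genes called by another tool and Egr3, Il4, Slc5a3, Gm46555, Akr1b3, Hspa1b, Tyrp1, Ptprc, Acta2, Tagln, Cnn1, Myh11, Des, Rcan2 and Ppp3r2 were named after their values were seen. Annotation came from GENCODE M21. Not every gene of the lists is named.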

Additional observations from a re-analysis of the deposited data

How the results depend on the processing

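The count of members past the threshold was 0 under every alternative run on gene, exon and intron reads. The members' log2 fold changes kept their sign under the alternatives that used all 4 libraries, except for Ppp3r1 with uniquely placed exon reads (-0.085 against 0.06) and Ppp3cb intron reads with the factors of the gene reads (-0.024 against 0.24). The count of pathway genes was 0 and became 7 without a filter on low counts, 3 with DESeq2 and 9 with the numbers crossed; the cause was not tested. With each library left out in turn it ranged from 0 to 4. The calls came without WT replicate 2 (Csf2, Dhx9, Homer2 and Slc38a2), where the lone WT library is assumed to vary like the Nfat5-/- pair and 478 of all genes passed. Leaving out libraries gave ranges of -0.23 to 0.53 for Nfat5, -0.19 to 0.0090 for Nfatc3 and -0.024 to 0.27 for Ppp3ca on gene reads, -0.30 to 0.53 for Nfat5 and -0.020 to 0.28 for Ppp3ca on exon reads, and -0.18 to 0.94 for Nfatc3, -0.056 to 0.54 for Ppp3cb and -0.14 to 0.92 for Rcan1 on intron reads.

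With the replicate number as a block, 0 members and 0 pathway genes passed, and the log2 fold change of Nfat5 was 0.125. The labels do not say that a number marks a shared litter or day. Same-numbered libraries deviated from their group means with a correlation of -0.12 across genes. That value cannot show whether they share a litter or day, so the pairing is not known. With the pairing crossed, chosen after seeing the data, 1142 genes passed in place of 160, with 0 members among them. Over all genes the count on gene reads also moved to 1137 without a filter, to 426 with DESeq2, and to between 16 and 478 with a library left out. On exon reads it moved from 175 to 1109 without a filter, to 69 without Nfat5-/- replicate 1 and to 28 without Nfat5-/- replicate 2. On intron reads it moved from 5 to 106 without a filter, to 9 with the replicate block, to 2 with the factors of the gene reads, and to between 18 and 109 with a library left out.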
